A study of Sus scrofa with 12 samples.

Results

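GATA3, GATA2, TEAD4, CDX2, TFAP2A and TFAP2C, 6 transcription factor genes of the trophectoderm, the outer cell layer of the blastocyst that later builds the placenta, were followed in Day 9 pig embryos. All 12 array probes that the platform's gene table assigns to these 6 genes were used, out of 18110 probes that carry the symbol of 1 of 11905 genes. GATA3, GATA2 and TFAP2A had 1 probe each, TFAP2C had 2, CDX2 had 3 and TEAD4 had 4. The genes were listed by name for their known role in the tissue, with no threshold on their values, though with earlier results of these data known.

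The embryos came from primiparous sows in which oestrus had been stimulated during lactation, a state that both groups share. FE sows were inseminated at that lactational oestrus, and SE (skip-a-heat) sows at the oestrus after it, with 3 sows in each group. Embryos were recovered 9 days after ovulation and sexed by PCR, and 5 male or 5 female embryos of a sow were pooled, so that each of the 12 pools stands for 1 sow and 1 sex. Two-colour arrays, 12 in all, paired FE with SE pools within each sex. They made up 3 male and 3 female biological sets, and the pools of each set were hybridised on 2 arrays, called here first array and swap array.

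TEAD4 is the DNA-binding partner of the Hippo pathway's co-activators, and in the mouse it acts upstream of CDX2 and GATA3 when outer cells become trophectoderm. CDX2, a homeobox factor, keeps mouse trophectoderm from expressing genes of the inner cell mass. GATA2 and GATA3 are zinc-finger factors that act on trophoblast genes, and TFAP2A and TFAP2C are AP-2 factors. TFAP2C takes part in trophectoderm formation in the mouse and is also expressed in early germ cells.

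Values are log ratios of FE and SE embryos, read as log2. As deposited, first and swap arrays of a set ran in opposite directions over all probes (Pearson's r from -0.766 to -0.149 in the 6 sets), although the labels name the same dye for FE on every array. The signs of the swap arrays were therefore turned, and a set's ratio is the mean of its 2 arrays. A positive ratio has the sign of the first arrays. Since neither the numerator channel nor the dyes are settled, positive cannot be read as higher in FE or in SE, and turning all signs exchanges every "positive" and "negative" below. Signal intensities were not analysed here, so neither the level of a gene nor whether a probe lay above background is known, and the tissue could not be checked by the presence of its markers. A smaller share of trophectoderm cells in a pool and less RNA per cell cannot be told apart in such pools. The sows of a group supplied pools of either sex, so p-values and intervals over the 6 sets treat as independent what is partly shared.

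**Figure D1:**
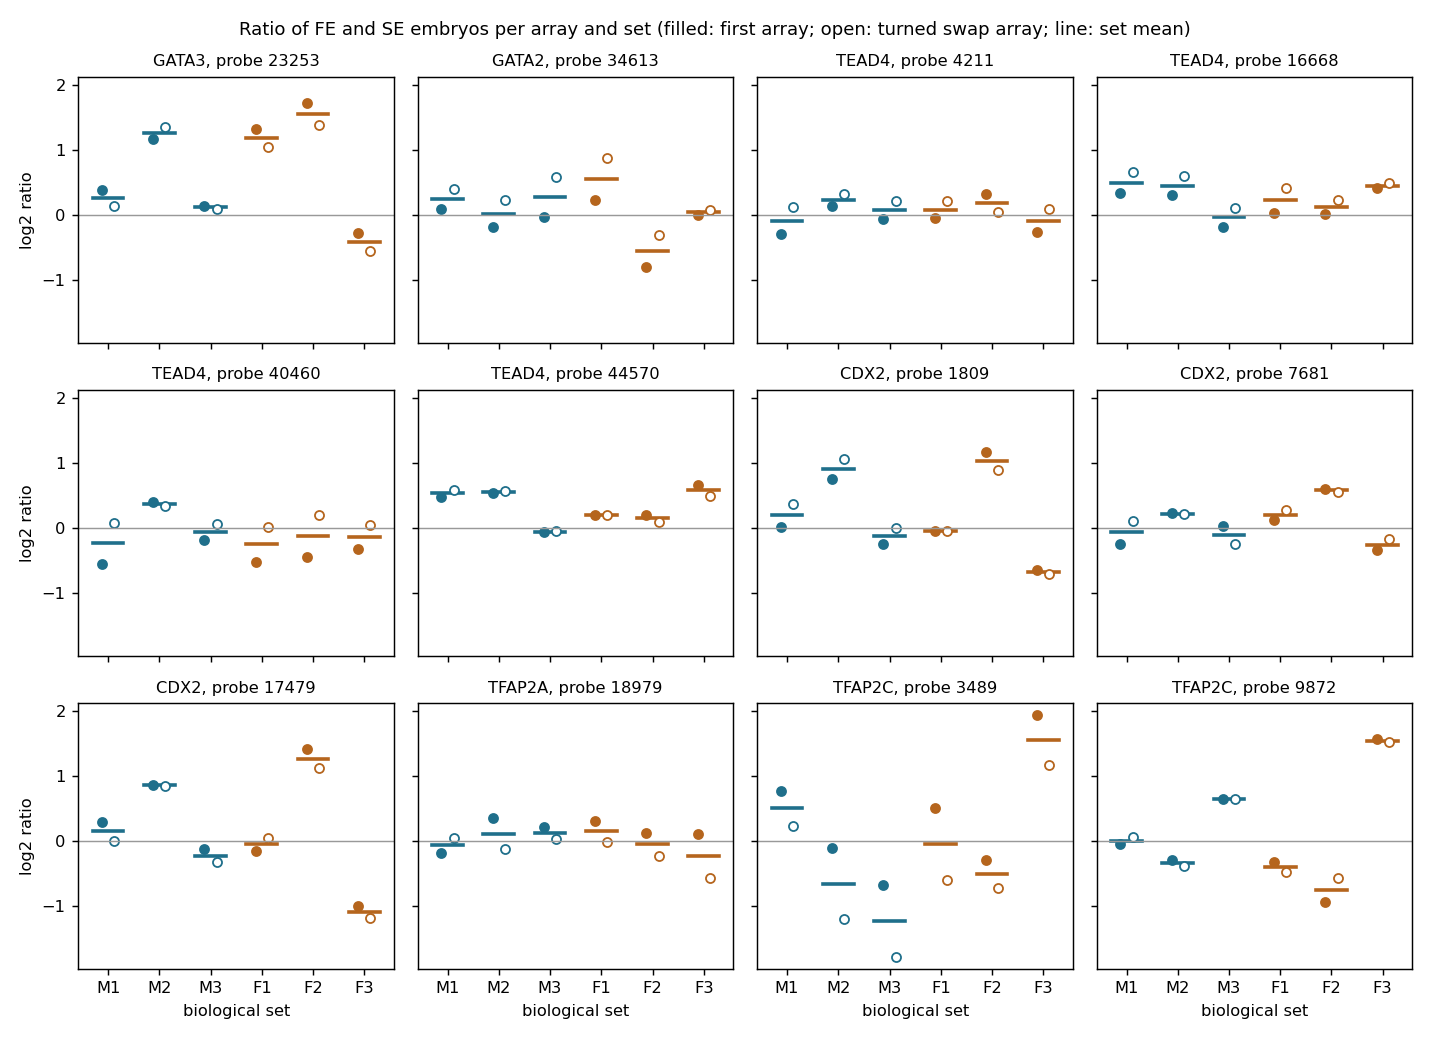
Log2 ratio of FE and SE embryos (vertical axis) in the 6 biological sets (horizontal axis, M male and F female) for each of the 12 probes. Filled points are first arrays, open points turned swap arrays and lines set means; GATA3, CDX2 and TFAP2C differ widely between sets, with GATA3 running from -0.42 to 1.55, while TFAP2A stays between -0.23 and 0.15.

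GATA3 had the largest mean ratio of the 12 probes and differed strongly from set to set. Its ratio was 0.26, 1.26 and 0.12 in male sets 1, 2 and 3. It was 1.18, 1.55 and -0.42 in female sets 1, 2 and 3. Male set 2 and female sets 1 and 2 stood above 1, male sets 1 and 3 lay near 0, and female set 3 alone was negative. Both arrays had the same sign in all 6 sets, and their largest gap was 0.35. Over both sexes the mean was 0.66 ± 0.78 (log2, SD, n = 6 sets), with a 95% interval from -0.029 to 1.34. This ratio did not pass the test (limma adjusted p = 0.854). Left out in turn, the sets moved the mean between 0.46 without female set 2 and 0.96 without female set 3, and no adjusted p came below 0.774.

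GATA2, the paralogue of GATA3, stayed closer to 0. Its ratio was 0.24, 0.012 and 0.28 in male sets 1, 2 and 3. It was 0.55, -0.55 and 0.035 in female sets 1, 2 and 3. The most positive and the most negative set were thus both female and lay on the same slide. In female set 2, where GATA3 had its highest ratio, GATA2 had its lowest. The mean of both sexes was 0.093 ± 0.37 (log2, SD, n = 6 sets; limma adjusted p = 0.973), with an interval from -0.24 to 0.43. The first array of GATA2 was lower than the turned swap array by 0.43 on average, more than the median size of this offset over all probes (0.195), and the mean over first arrays alone was negative (-0.12).

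CDX2 was measured by 3 probes, which the platform table ties to the same transcript record. Probe 17479 had ratios of 0.15, 0.85 and -0.23 in male sets 1, 2 and 3. Its female sets had -0.050, 1.27 and -1.09 in the same order. Set 2 of either sex was clearly positive and female set 3 clearly negative, with the other 3 sets close to 0. In the same order, probe 1809 had 0.19, 0.91 and -0.12 in male and -0.045, 1.03 and -0.68 in female embryos. Probe 7681 had -0.069, 0.22 and -0.12, followed by 0.20, 0.58 and -0.26 in female embryos. The 3 probes had the same sign in sets 2 and 3 of either sex, and probe 7681 had the narrowest range (0.84, against 1.72 and 2.36). Their means over both sexes were 0.15 ± 0.83, 0.22 ± 0.65 and 0.091 ± 0.30 (log2, SD, n = 6 sets), and none passed (limma adjusted p of 0.961 to 0.978). These means rest on single sets: without female set 2 those of probes 17479, 1809 and 7681 were -0.16, -0.018 and -0.010.

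TEAD4, the factor placed upstream of CDX2 and GATA3 in the mouse, varied less between sets. Probe 44570 had 0.53, 0.55 and -0.060 in male sets 1, 2 and 3. Its female sets had 0.20, 0.15 and 0.58 in the same order. Probe 16668, in the same order, had 0.49, 0.45 and -0.039 for male and 0.22, 0.12 and 0.44 for female embryos. Both probes were positive in 5 of 6 sets, with male set 3 as the exception. Their means were 0.32 ± 0.26 and 0.28 ± 0.21 (log2, SD, n = 6 sets), with intervals from 0.066 to 0.58 and from 0.063 to 0.50. Each interval left out 0 for that probe taken alone, but over all probes neither passed (limma adjusted p = 0.803 and 0.800). The other 2 TEAD4 probes did not share this offset. Probe 4211, tied to the same transcript record as probe 44570, ranged from -0.091 in male set 1 to 0.23 in male set 2, with a mean of 0.064 ± 0.13. Probe 40460 was negative in 5 of 6 sets, from -0.26 in female set 1, and reached 0.37 in male set 2, with a mean of -0.076 ± 0.23. In probe 40460 the 2 arrays of a set had the same sign in 1 of 6 sets, and in probe 4211 in 2 of 6. Averaged over its 4 probes, TEAD4 had a ratio of 0.15 ± 0.15 (SD, n = 6 sets; limma adjusted p = 0.956 among gene means).

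TFAP2C had the widest range of the 6 genes. Probe 9872 had 0.0073, -0.34 and 0.65 in male sets 1, 2 and 3. Its female sets had -0.40, -0.75 and 1.55 in the same order. Female set 3 stood far above the rest, and its arrays gave 1.57 and 1.52. Probe 3489, in the same order, had 0.50, -0.65 and -1.23 for male and -0.047, -0.51 and 1.55 for female embryos. The 2 probes gave the same ratio in female set 3 and were both negative in male set 2 and female sets 1 and 2. In female set 1, however, the arrays of probe 3489 gave 0.50 and -0.60. In male set 3 the 2 probes went opposite ways. There both arrays of probe 9872 gave 0.65, and those of probe 3489 -0.68 and -1.78. Probe 3489 also had the largest offset between first and turned swap arrays of the 12 probes, 0.84 on average, against -0.029 for probe 9872. The means over both sexes were 0.12 ± 0.85 for probe 9872 and -0.063 ± 0.98 for probe 3489 (SD over 6 sets, log2; limma adjusted p of 0.983 and 0.992). The mean of probe 9872 was -0.24 without female set 3.

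TFAP2A, the other AP-2 factor, had the narrowest spread beside TEAD4 probe 4211. Male sets 1, 2 and 3 had -0.069, 0.12 and 0.12, and female sets 1, 2 and 3 had 0.15, -0.052 and -0.23. No set reached a 1.5-fold difference in either direction. The mean was 0.0048 ± 0.15 (log2, SD, n = 6 sets; limma adjusted p = 0.996), with an interval from -0.16 to 0.17. The arrays of a set had the same sign in 1 of 6 sets.

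The design asks whether the time of mating altered expression in the embryos of both sexes. For the 6 factors, limma called 0 of 12 probes at an adjusted p of 0.05, where it called 0.00457% of all 43769 probes, and 2 of 12, both of TEAD4, had an unadjusted p under 0.05, where 5.92% of all probes did. None of the 12 probes was positive in 6 of 6 sets, which held for 2.37% of all probes, and none was negative in 6 of 6, which held for 1.77%. The median ratio of the 12 probes was 0.11 and that of all probes -0.0044. The widest intervals were those of TFAP2C probes 3489 (from -0.85 to 0.72) and 9872 (from -0.63 to 0.87), CDX2 probes 17479 (from -0.58 to 0.88) and 1809 (from -0.36 to 0.79), and GATA3 (from -0.029 to 1.34). Shifts of up to these sizes lie within the error of 6 sets taken as independent. The intervals of TFAP2A and TEAD4 probe 4211 lay between -0.16 and 0.23. In these probes the arrays of a set had the same sign in only 1 and 2 of 6 sets.

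**Figure D2:**
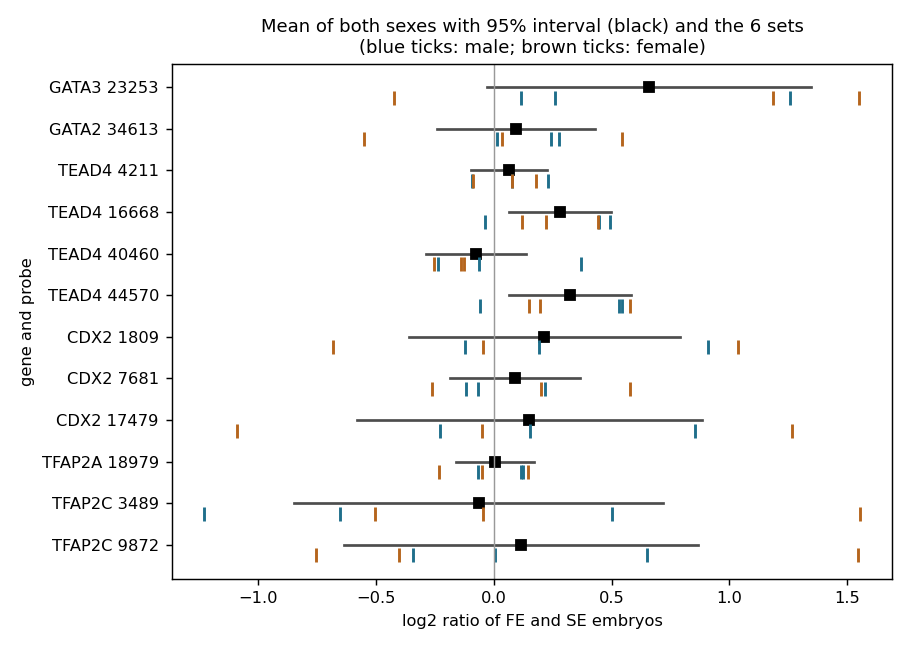
Mean log2 ratio of both sexes with its 95% interval (black squares and lines) and the ratio of each male (blue ticks) and female (brown ticks) set, for each probe. The intervals of TEAD4 probes 16668 and 44570 begin at 0.063 and 0.066, before adjustment over all probes, and the intervals of the other 10 probes span 0.

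Taken by sex, the comparison asks whether the mating strategy acted in embryos of 1 sex. For GATA3 the male mean was 0.54 ± 0.62 and the female mean 0.77 ± 1.05 (log2, SD, n = 3 sets each). TEAD4 probes 44570 and 16668 had male means of 0.34 ± 0.35 and 0.30 ± 0.29 and female means of 0.31 ± 0.23 and 0.26 ± 0.17. The values of the sexes overlapped in every one of these probes. In male embryos 0 of 12 probes passed, in female embryos 0 of 12 and for the difference between the sexes 0 of 12, and each of these comparisons called 0% of all probes (limma, adjusted p). At an unadjusted p under 0.05 the count was also 0 of 12 in each, while 1418, 2107 and 819 of all probes had such a p.

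The difference between the sexes, male minus female, was -0.23 for GATA3 with an interval from -1.60 to 1.15 (limma adjusted p = 0.9997). The widest difference, chosen after its value was seen, was that of TFAP2C probe 3489, with means of -0.46 ± 0.88 (male) and 0.33 ± 1.08 (female). Its difference was -0.79, with an interval from -2.36 to 0.77. No probe of the 6 genes had 1 sign in all male sets and the opposite sign in all female sets.

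The ratios were next compared between the 6 sets, against the gap between the 2 arrays of a set. This test compares pools and not FE with SE, since each set pairs other pools of both groups. GATA3, GATA2, all 3 CDX2 probes, both TFAP2C probes and 2 of the 4 TEAD4 probes differed between sets. These were 9 of 12 probes, where 37.7% of all probes and 43.2% of those with a symbol were called (limma F, adjusted p under 0.05). CDX2 probe 17479 had an adjusted p of 1.17e-06 in limma's F test, GATA3 of 2.09e-06, and TFAP2C probes 9872 and 3489 of 9.83e-07 and 1.53e-06. For CDX2 probes 1809 and 7681 the limma adjusted p was 1.61e-05 and 0.00704, for GATA2 0.00118, and for TEAD4 probes 44570 and 16668 0.00466 and 0.0242. Single sets decided 4 of these calls: without female set 2 GATA2 and CDX2 probe 7681 did not pass, and without male set 3 TEAD4 probes 44570 and 16668 did not. TEAD4 probes 4211 and 40460 and TFAP2A did not pass (limma adjusted p = 0.460, 0.0797 and 0.461). Their set values have standard errors of 0.12 to 0.13, against SDs over the sets of 0.13 to 0.23.

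GATA3, CDX2 and TFAP2C had the widest spread between sets. The SD over the 6 sets was 0.78 for GATA3, 0.83 and 0.65 for CDX2 probes 17479 and 1809, and 0.85 and 0.98 for the TFAP2C probes. Over all probes the median SD was 0.186, and these 5 probes lay at or above the 94.1th percentile. GATA2 followed with an SD of 0.37, at the 78.5th percentile, and CDX2 probe 7681 with 0.30, at the 71.6th. TEAD4 and TFAP2A lay between the 27.6th and the 67.0th percentile. From the lowest to the highest set the ratio changed 3.92-fold for GATA3, 5.12-fold for CDX2 probe 17479, 4.92-fold for TFAP2C probe 9872 and 1.30-fold for TFAP2A.

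**Figure D3:**
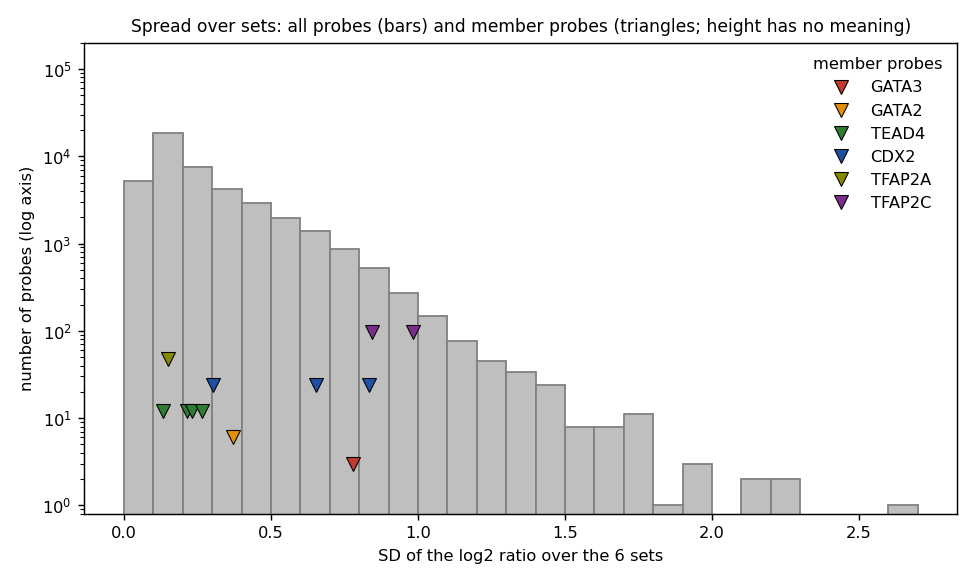
Number of probes (vertical log axis) by the SD of their log2 ratio over the 6 sets (horizontal axis), with the 12 probes of the 6 genes as triangles whose height has no meaning. GATA3, TFAP2C and 2 of the 3 CDX2 probes sit in the upper tail with SDs of 0.65 to 0.98, while TEAD4 and TFAP2A lie in the bulk with SDs of 0.13 to 0.26.

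Both arrays of a set shared a slide. Slide 1 held male sets 1 and 2, slide 2 female sets 1 and 2, and slide 3 the third set of each sex. A comparison of sets within slides was therefore run, and it called 7 of 12 probes, where 31.6% of all probes were called. The probes called were those of GATA3, GATA2 and TFAP2C, CDX2 probes 17479 and 1809 and TEAD4 probe 44570. CDX2 probe 7681 and TEAD4 probe 16668 no longer passed (limma F, adjusted p = 0.138 and 0.0640).

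On slide 1, male set 1 minus male set 2 was -0.99 for GATA3 (limma adjusted p = 0.00104). It was -0.70 for CDX2 probe 17479 (limma adjusted p = 0.00757) and 1.16 for TFAP2C probe 3489 (limma adjusted p = 0.0013). With CDX2 probe 1809 and TEAD4 probe 40460, 5 of 12 probes passed there, where 13.3% of all probes did. TFAP2C thus lay higher where GATA3 and CDX2 lay lower, although its probe 9872 (0.35) did not pass on this slide.

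On slide 2, female set 1 minus female set 2 was 1.10 for GATA2 (limma adjusted p = 0.000295). It was -1.32 for CDX2 probe 17479 (limma adjusted p = 5.0e-05) and -1.08 for CDX2 probe 1809. These were the 3 of 12 probes that passed, where 13.4% of all probes did. The GATA3 ratio was 1.18 and 1.55 in these sets and its difference of -0.37 did not pass (limma adjusted p = 0.157), so CDX2 differed between pools in which GATA3 was not shown to.

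On slide 3, male set 3 minus female set 3 was 0.54 for GATA3 (limma adjusted p = 0.0213) and 0.86 for CDX2 probe 17479 (limma adjusted p = 0.000827). It was -0.64 for TEAD4 probe 44570 (limma adjusted p = 0.00286). For TFAP2C it was -0.90 with probe 9872 and -2.78 with probe 3489 (limma adjusted p = 0.000565 and 5.68e-07). With CDX2 probe 1809 and TEAD4 probe 16668, 7 of 12 probes passed there, where 22.2% of all probes did. On this slide too, the set with the lower CDX2 and GATA3 ratios had the higher TFAP2C ratio. The sets of slide 3 also differ in sex. On slide 2 the TFAP2C differences, 0.46 with probe 3489 and 0.35 with probe 9872, did not pass (limma adjusted p = 0.137 and 0.165).

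Seen together over the sets, the probe of each gene with the largest F shows how the factors stood to each other. GATA3 and CDX2 probe 17479 had the same sign in 4 of 6 sets, both positive in set 2 of either sex and male set 1 and both negative in female set 3. CDX2 and TFAP2C probe 9872 had opposite signs in 4 of 6 sets, those numbered 2 and 3 of either sex. In female set 3 the ratios were -1.09 for CDX2 and 1.55 for TFAP2C, and in female set 2 they were 1.27 and -0.75. Over the 6 pairs of a CDX2 with a TFAP2C probe, the number of sets with opposite signs ran from 3 to 6. Since each of the 15 pairs of factors split 4 to 2 one way or the other, the counts mark out no pair. They describe 6 sets that share sows, and no test was made of them.

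**Figure D4:**
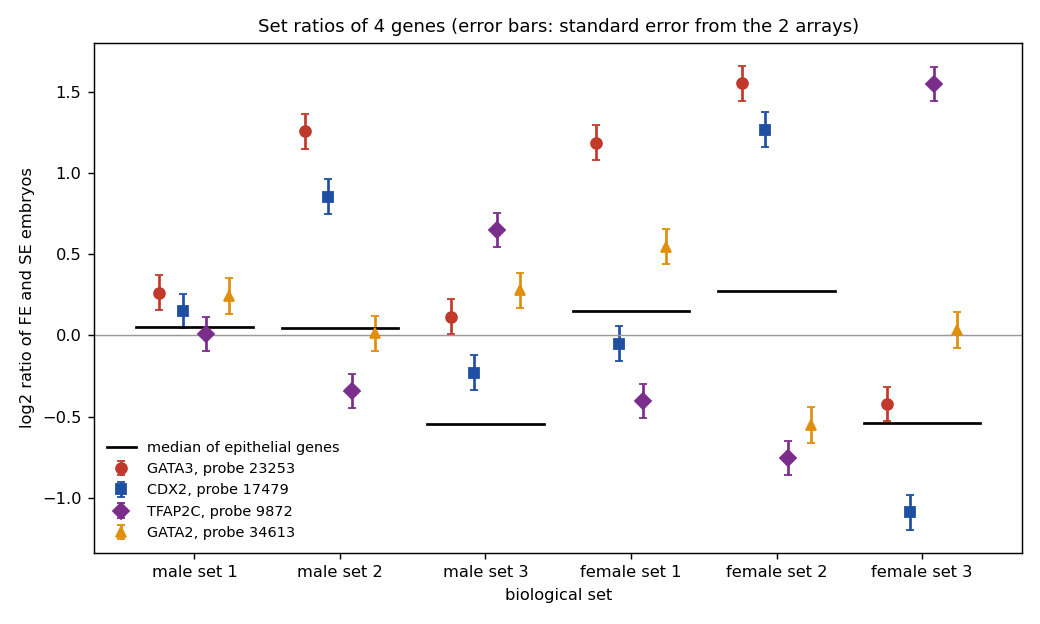
Log2 ratio (vertical axis) of GATA3, CDX2, TFAP2C and GATA2 in each set (horizontal axis), each with the probe of largest F and its standard error from the 2 arrays, and the median of epithelial genes as black lines. In female set 2 CDX2 stood at 1.27 and TFAP2C at -0.75, and in female set 3 at -1.09 and 1.55.

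Genes with a like pattern over the 6 sets were named for each factor by the highest Pearson's r among 7814 to 7817 named probes that differed between sets. With so many candidates and 6 sets an r near 1 can arise for any pattern, and r is given as a description. For GATA3 they were ATP13A2, the glucose transporter gene SLC2A1 and GOLGA7 (r = 0.997, 0.995 and 0.994). For CDX2 they were RPN1, a subunit of the oligosaccharyltransferase, PRELID3B and the zinc transporter gene SLC39A7 (r = 0.998, 0.994 and 0.994). For TFAP2C they were LOC100511905, the chaperone gene DNAJC9 and the splicing gene RBM39 (r = 0.996, 0.996 and 0.991). For GATA2 they were RDX, WTAP and CD55 (r = 0.978, 0.973 and 0.967), and for TEAD4 HSD17B7, CSNK1G2 and PRMT7 (r = 0.975, 0.961 and 0.956). For TFAP2A, which itself did not differ between sets, they were SLC25A32, PRDX6 and NARS2 (r = 0.988, 0.980 and 0.978). None of the other 5 factors was among the 3 nearest of any factor.

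The wider network was described on fixed lists. Of the Hippo pathway, whose kinases hold back the co-activators of TEAD4, 16 of 28 listed genes were on the array. None of their 23 probes passed for both sexes in either direction, and the median ratio was 0.011. ROCK2, a kinase acting on the cytoskeleton, had a mean of -0.22 ± 0.42 and WWTR1, the co-activator TAZ, of 0.23 ± 0.37 (SD over 6 sets, log2; limma adjusted p of 0.929 and 0.934). That WWTR1 probe, 28239, ran from -0.33 in male set 1 to 0.61 in male set 2. Its other probe, 23527, had a mean of -0.073 and did not differ between sets (limma F, adjusted p = 0.317). Between sets 12 of the 23 Hippo probes (52.2%) differed, where 43.2% of all named probes did.

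Of the paralogues of the 6 factors, 5 of 12 were measured with 1 probe each, and none passed for both sexes (median 0.0067). TFAP2D had -0.16 ± 0.26 and GATA6 0.033 ± 0.45. Between sets 1 of the 5, TFAP2D, differed (20.0%), where 43.2% of all named probes did. GATA6, a paralogue of GATA2 and GATA3 known for its role in the hypoblast, was 0.59, 0.21 and 0.41 in male sets 1, 2 and 3. It was -0.087, -0.35 and -0.58 in female sets 1, 2 and 3, so that the sexes did not overlap. The difference, male minus female, was 0.74 and did not pass (limma adjusted p = 0.9997). Of the cofactors of GATA and AP-2 proteins, 6 of 8 were measured and none passed (median 0.018), with CITED1 at 0.17 ± 0.27 and ZFPM2 at 0.054 ± 0.084. KCTD1 and LDB1 differed between sets, 2 of the 6 probes (33.3%), against the same 43.2% of all named probes. LDB1, an adaptor that links GATA and LIM proteins, is named after its values were seen. In male set 2 and female set 2 it had 0.89 and 0.81, against -0.99 in female set 3. GATA3 had 1.26, 1.55 and -0.42 there. KCTD1, the other cofactor that differed between sets, had -0.44, -0.40 and 0.32 in these sets, signs opposite to those of GATA3.

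Of other transcription factors of the trophectoderm, 21 of 23 were measured with 28 probes, none of which passed (median 0.0014). PPARG, whose other probe had a mean of 0.18, had -0.11 ± 0.13 and KLF5, which acts in early trophectoderm of the mouse, 0.34 ± 0.52 (limma adjusted p = 0.915 and 0.925). Between sets 10 of the 28 probes (35.7%) differed, fewer than the 43.2% of all named probes. KLF5 reached 0.67 in male set 2, 1.05 and 0.60 in female sets 1 and 2 and -0.38 in female set 3, with 0.044 and 0.040 in the remaining male sets. The sets with a high or a low ratio were those of GATA3. Other probes of this list that differed between sets went both ways, and those named next were chosen after their values were seen. In male set 2, female set 2 and female set 3, MSX2 had 0.65, 0.17 and -0.58. KLF6 had -0.040, -0.51 and 0.18 there, and TBX3 probe 20015 had -1.09, -0.36 and 0.055.

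Epithelial genes of the trophectoderm, such as keratins and junction proteins, were measured for 14 of 18 listed genes with 24 probes. None passed for both sexes (median -0.077), with ATP1B1 at -0.21 ± 0.095 and CGN at -0.22 ± 0.33. Between sets 21 of the 24 probes (87.5%) differed, where 43.2% of all named probes did. Male sets 1, 2 and 3 had median ratios of 0.055, 0.046 and -0.55, and female sets 1, 2 and 3 of 0.15, 0.28 and -0.54. The medians of both sets of slide 3 were thus negative, with 19 of 24 probes negative in male set 3 and 23 of 24 in female set 3. AQP3 probe 7776 was the exception in female set 3, with 0.89. In these sets GATA3 had 0.12 and -0.42, TFAP2C probe 9872 0.65 and 1.55 and TFAP2C probe 3489 -1.23 and 1.55.

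Markers of the other cells that a pool could hold were set beside these values. Of the epiblast, 10 of 13 markers were measured with 15 probes, whose median lay between -0.058 and 0.12 over the sets, and 5 probes (33.3%) differed between sets. Of the hypoblast, 12 of 17 were measured with 19 probes, whose median lay between -0.16 (male set 3) and 0.21 (female set 2). Between sets 10 of these probes (52.6%) differed. For all named probes that share was 43.2%. Single hypoblast markers moved more than these medians, and those named next were chosen after their values were seen. APOE, an apolipoprotein gene, had 0.41, 0.94 and -1.60 with probe 32939 in the male sets, in order, followed by 0.11, 2.36 and -0.39 in female embryos. Probe 28341 of APOE had -0.27, 0.69 and -1.73, followed by 0.28, 1.71 and -1.001. Both were highest in set 2 and lowest in set 3 of either sex, as was CDX2 probe 17479. For uterine markers, 7 of 10 with 11 probes, the medians lay between -0.065 and -0.0047, and for blood markers, 8 of 10 with 11 probes, between -0.0030 and 0.088, and 0 of either differed between sets in limma's F test.

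Of these 4 marker lists 0 probes passed for both sexes in limma's test, and 2 epiblast, 2 hypoblast, 0 uterine and 0 blood probes had an unadjusted p under 0.05, where 5.92% of all probes did. The median ratio of both sexes was 0.027 for epiblast, 0.037 for hypoblast, -0.043 for uterine and 0.023 for blood markers. SOX2 of the epiblast had 0.16 ± 0.12, and ETV4 0.19 ± 0.20. Of the hypoblast, APOC3 had 0.55 ± 0.44 and COL4A1 0.55 ± 0.60 with probe 5178, and -0.075 with its other probe. These are the smallest p of their list, which also held RBP4 with -0.19 and FOXA2 with -0.15, chosen after their values were seen. FGF7 and ESR1 of the uterus had -0.13 ± 0.12 and 0.097 ± 0.097, and HBE1 and CD3E of blood 0.12 ± 0.11 and 0.12 ± 0.15. Of the list genes named, ROCK2, WWTR1, PPARG, TBX3, CGN, ETV4, COL4A1, NID2, ESR1, AQP3 and APOE had probes whose mean ratios differed in sign. The part of other cells, or of the share of trophectoderm in a pool, in the differences between sets of GATA3, CDX2 and TFAP2C was not tested.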

How the data were processed

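The authors deposited 1 value for every probe on each array, a ratio of FE and SE on a log scale that was taken as log2 from its range of -4.99 to 5.97. Per the labels' protocols, amplified RNA of the pools carried Cy3 or Cy5. The log base, numerator, scanning and normalization were not given in the sources used here. Array medians lay between -0.0012 and 0.011. Of 43794 probes, 25 with a missing value were left out. The platform's gene table gave the symbols, 229 brought up to date through synonyms in RefSeq's pig table (Sscrofa11.1).

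Swap arrays were sign-turned because deviations of first and swap arrays from their means correlated at -0.728. Set ratios (mean of 2 arrays) were fitted over all 43769 probes with a mean for each sex by lmFit and eBayes of limma 3.58.1 (R 4.3.3; 2.3 prior degrees of freedom), with Benjamini-Hochberg adjustment and 95% intervals. Sets were compared with limma's F on 12 arrays with a term for array role. The fits were checked on simulated data. These were drawn with independent sets, so the check does not cover sows shared between sets.

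The genes, lists, tests and rules were chosen with earlier results of these data known. All probes of the 6 genes are named; of each list, the 2 genes of smallest p (the probe of smallest p standing for its gene) and any past the threshold; of like patterns, the 3 of highest r. Alternatives covered the arrays used, their direction, centring and scaling, the probes tested, the variance model, blocks and each set left out. Arrays limit the precision by their number. No probe, promoter or protein sequence was used here.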

Additional observations from a re-analysis of the deposited data

Results flagged for a closer look

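One value stood far from the others of its probe over the 6 sets. TEAD4 probe 40460 had 0.37 in male set 2, while its other 5 sets lay between -0.26 and -0.064, a gap of 0.694 of the whole range. This is above the limit of Dixon's test at 95% for 6 values. Chance passes that limit in about 1 in 20 groups, and 31 probes, 12 of the 6 factors and 19 of list genes, were looked at. Both arrays of male set 2 were positive (0.40 and 0.34), and TEAD4 probes 44570 and 16668 had 0.55 and 0.45 in that set.

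GATA6 was positive in all 3 male sets and negative in all 3 female sets, with means of 0.40 and -0.34. The difference, male minus female, was 0.74, with an unadjusted p of 0.0041 and an adjusted p of 0.9997 in limma's test. It ran from 0.62 to 0.87 with each set left out. Of all 43769 probes 814 had opposite signs in all male and all female sets, and the ratio of GATA6 did not pass between sets against the gap of its arrays (limma F, adjusted p = 0.353).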

How the results depend on the processing

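For FE against SE, 0 of 12 probes passed in both sexes, in male, in female embryos and for the difference in each alternative run but 2. With an unadjusted p under 0.05, 2 passed for both sexes, where 5.92% of all probes did. With swap arrays not turned, which sets arrays of a set against each other, 5 passed for both sexes, 2 in male and 2 in female embryos, where 37.3%, 19.8% and 15.6% of all probes did, and between sets 0 of 12 (limma F; also 0 at an unadjusted p under 0.05). Between sets, gene means called 4 of 6 genes, where 4874 of all 11905 gene means were called. Leaving out single sets gave 7 to 9 of 12 probes, where 13295 to 16703 of all 43769 probes were called. Without male set 3 the calls of both TEAD4 probes ended (adjusted p = 0.191 for probe 16668 and 0.0634 for 44570), and without female set 2 those of GATA2 (0.0897) and CDX2 probe 7681 (0.114). Without a term for array role, those of GATA2 (0.155) and TEAD4 probe 16668 (0.368) ended.

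Ratios of both sexes kept their sign in 213 of 240 alternative values. On first arrays alone GATA2 had -0.12, TEAD4 probe 4211 -0.040 and TFAP2C probe 3489 0.36. On swap arrays alone TEAD4 probe 40460 had 0.12, TFAP2A -0.15 and TFAP2C probe 3489 in female embryos -0.049. As gene means TEAD4 had 0.15 and TFAP2C 0.027, against the negative probes 40460 and 3489. With array weights TFAP2C probe 9872 had -0.035. With swap arrays not turned GATA2 had -0.21, TEAD4 probes 4211 and 16668 -0.10 and -0.13, CDX2 probes 1809 and 7681 -0.048 and -0.029, and TFAP2C probes 3489 and 9872 0.42 and -0.015. In that setting TEAD4 probes 16668 and 44570 had -0.15 and -0.026 in male embryos, probe 16668 -0.11 in female embryos, and TFAP2C probe 3489 0.46 in male embryos and a difference of 0.075. Fitted with a fixed slide block, the difference of GATA3, which then rests on slide 3, was 0.54. With sets left out in turn, ratios ran from -0.041 to 0.23 for GATA2, -0.018 to 0.41, -0.010 to 0.20 and -0.16 to 0.43 for CDX2 probes 1809, 7681 and 17479, -0.043 to 0.052 for TFAP2A and -0.37 to 0.15 and -0.24 to 0.34 for TFAP2C probes 3489 and 9872. For TFAP2C probe 3489 in female embryos they ran from -0.28 to 0.75, and for the GATA3 difference from -0.82 to 0.16. For the 19 list genes looked at, 363 of 380 values kept their sign. On first arrays alone CITED1 had -0.087, and on swap arrays alone GATA6 had -0.27, ZFPM2 -0.10, FGF7 0.022 and CD3E -0.024. With swap arrays not turned ROCK2 had 0.12, CITED1 -0.26, PPARG 0.081, ATP1B1 0.21, CGN 0.077, SOX2 -0.013, ETV4 -0.0025, ESR1 -0.072, HBE1 -0.00038 and the GATA6 difference -0.12. The gene mean of PPARG was 0.034, and GATA6 ran from -0.030 to 0.094 with sets left out. The cause of these changes was not tested.

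The sexes share set numbers. Over probes, deviations of same-numbered sets from their sex means correlated with r = 0.047, 0.406 and 0.262. Between male and female sets of other numbers r ran from -0.349 to 0.058. The labels do not state whether same-numbered sets share sows, and the main fits did not take the numbers as pairs. Whether set numbers mark pairs was not tested. With the set number as a replicate block 0 of 12 probes passed for both sexes (GATA3 0.66, adjusted p = 0.998) and 0 of 12 for the difference.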
